A study of Mus musculus with 6 samples.

Results

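The genes described here are the organic ion and ABC transporters of mouse liver. They are the genes whose symbols begin with Slco, Slc10a or Slc22a, or with Abca to Abcg followed by a number, less 3 genes that the selection left out. Each had to have an array probe annotated to exactly 1 gene symbol, and the probe with the highest mean over the 6 arrays stood for its gene. The selection rule used symbols and brightness and no difference between diets, but it was drawn up with earlier results of these data known. It gave 89 members among 19938 genes in 9 families: 15 Slco, 6 Slc10a, 22 Slc22a, 15 Abca, 8 Abcb, 10 Abcc, 3 Abcd, 4 Abce and Abcf and 6 Abcg genes. A gene was tested if its mean log2 signal over all arrays was at least 5, which held for 52 members and for 10977 genes in all. The tested members numbered 5 Slco, 3 Slc10a, 13 Slc22a, 8 Abca, 5 Abcb, 7 Abcc, 3 Abcd, 4 Abce and Abcf and 4 Abcg.

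The liver clears bile acids, bilirubin, hormones and drugs from blood by carrying them into hepatocytes, modifying them and pumping them out into bile or back into blood. Uptake across the blood-facing (sinusoidal) membrane is the work of SLC carriers: the SLCO family (organic anion transporting polypeptides), the SLC10A family (bile acid carriers) and the SLC22A family (organic anion and cation carriers). ABC proteins use ATP to export conjugates, phospholipid and sterols, mainly across the bile-facing (canalicular) membrane, and many of these genes are known to change in level around birth and to differ between male and female adult mice.

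Liver RNA came from offspring of C57Bl6/J mice, an inbred strain, whose mothers had eaten isocaloric diets that differed in their oil, given at 6 g%. The control diet held soybean oil, with oleic acid at 42% as the main fatty acid. The ALA diet held flaxseed oil, with alpha-linolenic acid at 31.6%, and the SFA diet held coconut oil, with saturated fatty acids at 48.51%. Fathers ate regular chow except while mating, when they shared their mates' diet. Livers were taken within 1 day of birth, 3 were pooled for each array, and each diet had 2 arrays, so the whole comparison rests on 6 arrays. The labels give no sex or litter for the pools and do not say that duplicate pools held different animals, so the p-values stand for no more than the spread between these samples. For the ALA and SFA pairs that spread may be technical. The 2 control pools differed in sex-linked genes, with Xist at 10.67 and 8.34 and the Y-linked Eif2s3y at 3.63 and 7.95.

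The control arrays differed from the others in cell type and age markers, and those values apply to every comparison with control. Hepatocyte markers were high on all arrays, with a mean log2 signal of 11.8 to 12.0 over 9 genes, and 0 of 9 were called on either diet. Kupffer cell markers were called higher for 12 of 12 genes on the ALA diet and 9 of 12 on the SFA diet (list means 7.29 to 7.39 on control, 8.30 to 8.70 on the others). Stellate cell markers were called higher for 9 and 11 of 12 genes (6.14 to 6.42 on control, 7.33 to 7.49 on the others), and endothelial markers for 8 and 8 of 12 (6.88 to 7.46 on control, 8.01 to 8.36 on the others). Fetal and neonatal liver markers were called higher for 6 and 8 of 11 genes (5.23 to 5.24 on control, 6.64 to 7.28 on the others). Genes induced as the liver matures after birth were called lower for 3 and 6 of 11 (10.27 to 11.1 on control, 8.71 to 9.22 on the others). By these list means the control pools had lower fetal and higher maturation markers than the ALA and SFA pools, although the labels give 1 age for all. Over all tested genes, 5.11% were called higher on ALA and 6.62% on SFA, and 2.82% and 7.15% were called lower. Not every listed gene moved with its list mean. Cyp7b1 and Cyp2d9 of the maturation list are also in the list of adult male-biased genes used further on. Sex-linked genes differed too: the control replicate 1 and SFA pools lacked Y-linked signal, the ALA pools lacked Xist, and control replicate 2 carried both. Diet, the sex makeup of the pools and the maturity markers cannot be told apart in this design. In bulk tissue, fewer cells of a type and less RNA per cell cannot be told apart either.

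With all 6 arrays, more of the tested transporter genes fell than rose on either maternal diet, a balance that turned on the SFA diet without control replicate 1 (5 called higher and 1 lower). On the ALA diet 7 of 52 tested members (13.5%) passed an adjusted p of 0.05 in limma's moderated test, against 7.93% of all tested genes. Abcc9 and Abcg1 rose, while Slco2a1, Slc10a5, Slc22a30, Abca2 and Abcc3 fell, which is 5 members lower (9.62%, against 2.82% of all genes) and 2 higher (3.85%, against 5.11%). On the SFA diet 12 of 52 (23.1%) passed, against 13.8% of all genes. Abcc9 rose (1.92%, against 6.62% of all genes) and 11 fell (21.2%, against 7.15%): Slco1b2, Slco2a1, Slco2b1, Slc22a4, Slc22a17, Slc22a30, Abca2, Abca8a, Abcb4, Abcc2 and Abcc10. On the SFA diet the direction of the called genes depended on scaling over the whole array: 48.1% of all called genes were higher here, and 66.1%, 64.7% and 62.0% were with 75th percentile centring, quantile normalization and cyclic loess. The members called lower there numbered 6, 9 and 10 under those scalings. The median log2 change of the tested members was -0.14 on the ALA diet and -0.24 on the SFA diet, beside -0.01 and -0.05 for all tested genes. The groups did not overlap for 28 members on the ALA diet, at 53.8% close to the 55.0% of all genes, and for 37 (71.2%, against 64.2%) on the SFA diet. The moderated F test across the 3 diets called 12 members (23.1%, against 13.5%). Both diets were set against the same 2 control arrays, so their values below stand side by side and are not independent.

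**Figure D1:**
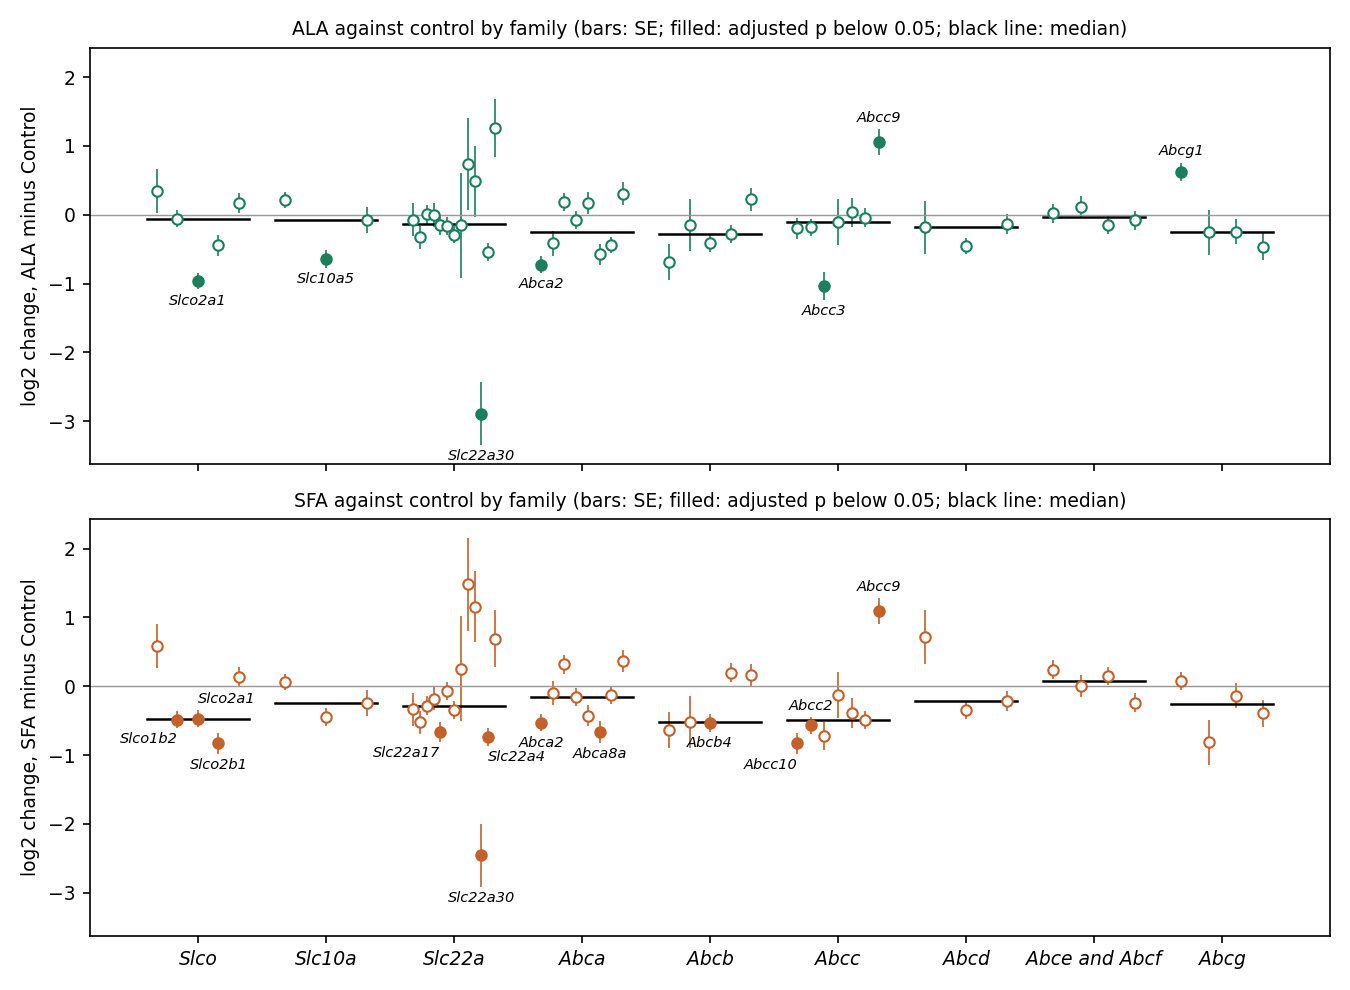
Log2 change of each of the 52 tested transporter genes from control, by family, on the ALA diet (upper panel) and the SFA diet (lower panel). Points are genes, bars are standard errors from the fit, filled points passed an adjusted p of 0.05, and black lines are family medians, which run from -0.28 to -0.03 on the ALA diet and from -0.52 to 0.08 on the SFA diet.

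These counts depend on single arrays. Slco2a1 was called on the ALA diet in all 6 fits that left out 1 array, with an adjusted p of 0.0238 to 0.0373, and Slc22a30 in 5 of 6. Without control replicate 2 the ALA count was 2, Slco2a1 and Abcc3. Leaving out ALA replicate 1, ALA replicate 2, SFA replicate 1 or SFA replicate 2 gave 3 each time: Slco2a1 and Slc22a30, with Slc10a5, Abcc9, Abca2 and Abca2 in turn. Without control replicate 1 it was again 7, of which 4 were among the original calls (Slco2a1, Slc22a30, Abca2 and Abcc9) and 3 were others (Abcb10, Slc22a27 and Slc22a29). The SFA count was 11 without ALA replicate 1 and 11 without ALA replicate 2, 6 without control replicate 1, 1 without control replicate 2 (Abcc3), 0 without SFA replicate 1 and 1 without SFA replicate 2 (Abcc10). Genes called over the whole array fell as well, from 1512 on the SFA diet to 735, 367, 245 and 362 without those last 4 arrays in turn. Of the 12 SFA calls, Abcc9 alone was among the 6 made without control replicate 1. The other 5 (Abcb10, Abcd2, Slc22a27, Slc22a29 and Slco1a4) were not called with all arrays.

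Of the 5 tested Slco carriers, 3 were called lower on the SFA diet and 1 on the ALA diet. Over all tested genes 7.15% and 2.82% were called lower, and 5 genes are too few for a result about the family. Slco2a1, the prostaglandin transporter, read 9.81 and 9.67 in log2 signal on control, 8.79 and 8.76 on ALA, and 9.31 and 9.23 on SFA. The 3 diets did not overlap, and ALA was lowest. Slco2a1 fell by 0.96 (SE 0.12, adjusted p = 0.00778) on the ALA diet and by 0.47 (SE 0.12, adjusted p = 0.0469) on the SFA diet. Endothelial markers, whose cells are a known site of this carrier, stood higher on both diets, and their part in the Slco2a1 change was not tested.

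Slco2b1, which takes up sulfated steroids, read 8.82 and 8.83 on control, 8.51 and 8.24 on ALA, and 8.13 and 7.86 on SFA. Here the SFA arrays were lowest and the groups again did not overlap. Slco2b1 fell by 0.83 (SE 0.15, adjusted p = 0.0186) on the SFA diet, and its ALA difference of -0.44 did not pass (adjusted p = 0.130). Slco1b2, the main liver carrier of this family for bilirubin and many drugs, read 9.99 and 10.10 on control, 10.06 and 9.92 on ALA, and 9.61 and 9.52 on SFA. Control and ALA overlapped, and only the SFA arrays lay below. Slco1b2 fell by 0.49 on the SFA diet (SE 0.13, adjusted p = 0.0472), with -0.06 on the ALA diet (adjusted p = 0.821). Neither Slco1b2 nor Slco2a1 was called on the SFA diet in any of the 6 fits that left out 1 array, and the Slco1b2 log2 change stayed between -0.54 and -0.43.

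Slco3a1, a carrier of prostaglandins and thyroid hormone, was 6.38 to 6.78 on all arrays and did not pass on either diet. Slco1a4, a sinusoidal carrier of bile acids and cardiac glycosides, read 9.96 and 8.87 on control, 9.63 and 9.89 on ALA, and 9.98 and 10.01 on SFA. Its control arrays were further apart than either was from the other diets' nearest array, and its changes of 0.34 and 0.59 did not pass (adjusted p = 0.559 and 0.254). Without control replicate 1 the SFA change was 1.13, with an adjusted p of 0.0253, where the other fits that left out an array gave up to 0.905.

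The bile acid carriers of the Slc10a family split by member. Slc10a1, the sodium-dependent carrier that brings bile acids from portal blood into hepatocytes, was the brightest member, at 11.82 and 11.91 on control, 12.10 and 12.06 on ALA, and 11.96 and 11.90 on SFA. Its changes were 0.21 (SE 0.12, adjusted p = 0.323) and 0.06 (SE 0.12, adjusted p = 0.737), and the SFA and control arrays overlapped. Slc10a5, a liver member of the family without a known bile acid, read 8.98 and 9.01 on control, 8.47 and 8.23 on ALA, and 8.58 and 8.52 on SFA. All 4 diet arrays lay below both control arrays. Slc10a5 fell by 0.64 (SE 0.13, adjusted p = 0.0329) on the ALA diet, and its SFA change of -0.44 did not pass (adjusted p = 0.0681). Slc10a7 was 6.01 to 6.58 on all arrays and was not called. Slc10a2, the bile acid carrier of ileum and bile duct, had a mean below the minimum and rose above 5 on control replicate 2 alone (5.71, against 4.17 on control replicate 1 and 3.25 to 3.70 on the other arrays).

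The Slc22a family held the largest change among the 52 tested members. Slc22a30, in the organic anion branch of the family, read 8.35 and 8.84 on control, 6.50 and 4.90 on ALA, and 6.15 and 6.12 on SFA. Both control arrays lay more than 1 log2 unit, a doubling, above all 4 others. Slc22a30 fell by 2.89 (SE 0.46, adjusted p = 0.0152) on the ALA diet and by 2.46 (SE 0.46, adjusted p = 0.0190) on the SFA diet. With 1 array left out the ALA change ran from -3.69 to -2.09, and leaving out control replicate 2 ended the call (adjusted p = 0.0883). On the SFA diet the call was lost without any 1 of the control and SFA arrays (adjusted p up to 0.105).

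The next Slc22a members, among them organic cation, organic anion and orphan members, changed less than Slc22a30. Slc22a4, the carrier of the antioxidant ergothioneine, read 6.03 and 5.99 on control, 5.37 and 5.56 on ALA, and 5.20 and 5.35 on SFA. Both diets lay below control without overlap, and Slc22a4 fell by 0.73 on the SFA diet (SE 0.13, adjusted p = 0.0172). The ALA change of -0.55 was just outside the threshold (adjusted p = 0.0517). Slc22a17, a receptor for the iron-siderophore protein lipocalin 2, read 5.88 and 5.79 on control, 5.59 and 5.79 on ALA, and 5.05 and 5.30 on SFA. Its 2 lowest values were the SFA arrays, and it fell by 0.66 on the SFA diet (SE 0.14, adjusted p = 0.0299), beside -0.14 on the ALA diet. That SFA call was lost with 75th percentile centring, with quantile normalization and with cyclic loess. Slc22a7, the organic anion transporter 2 of the sinusoidal membrane, read 6.10 and 7.15 on control, 7.97 and 7.81 on ALA, and 7.85 and 6.78 on SFA. The ALA arrays were above both control arrays, but with control arrays 1.05 apart the change of 1.26 (SE 0.42) did not pass (adjusted p = 0.116). Slc22a18 and Slc22a23, members with no settled substrate, were above 9 on all arrays, with changes of -0.16 and -0.29 on ALA and -0.07 and -0.34 on SFA, none of which passed.

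**Figure D2:**
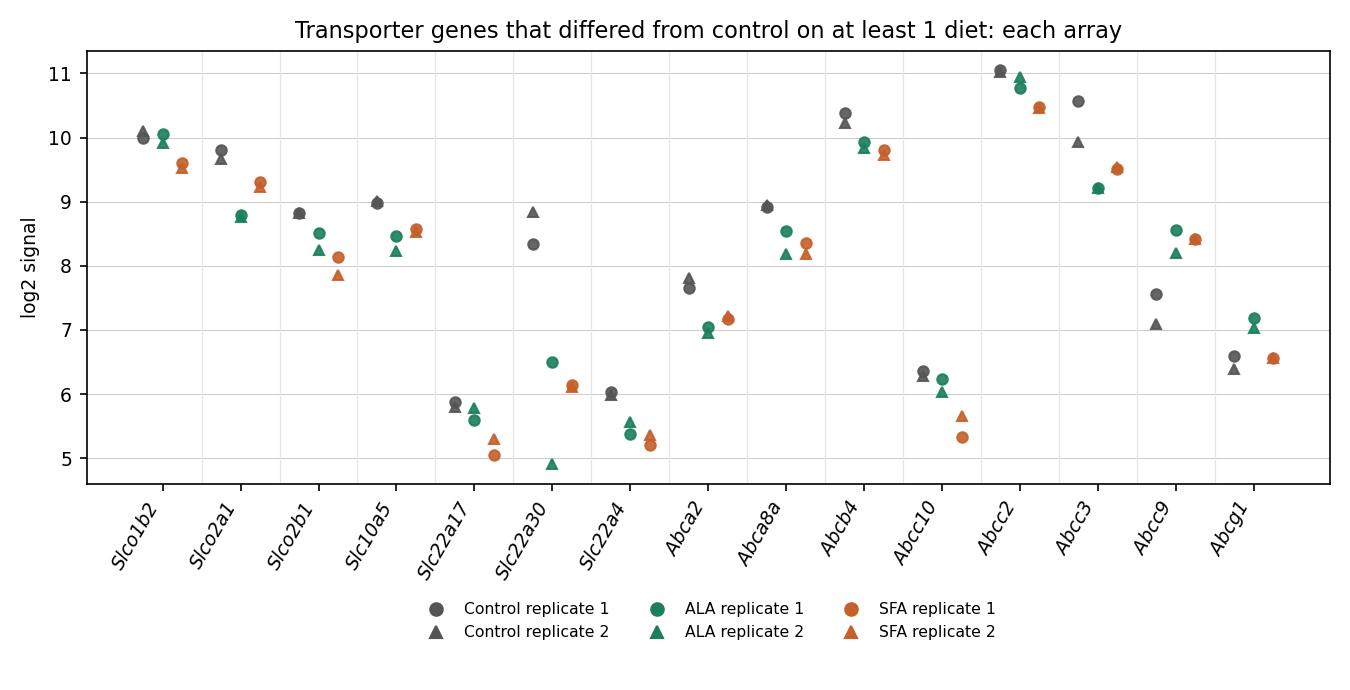
Log2 signal on each of the 6 arrays for the 15 transporter genes that passed an adjusted p of 0.05 against control on at least 1 diet. Circles are replicate 1 and triangles replicate 2, grey is control, green ALA and orange SFA. Slc22a30 has the widest gap, with control at 8.35 and 8.84 and the other arrays at 4.90 to 6.50.

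Slc22a30 sits in a row of related genes on chromosome 19, in the order Slc22a19, Slc22a26, Slc22a27, Slc22a28, Slc22a29 and Slc22a30 in the RefSeq annotation of GRCm38.p6. The row was set out as a group after its values had been seen. Slc22a26 read 9.70 and 7.12 on control, 8.83 and 7.69 on ALA, and 8.73 and 8.61 on SFA. Slc22a27 read 8.33 and 5.85 on control, 7.79 and 7.88 on ALA, and 8.61 and 8.54 on SFA. Slc22a29 read 5.44 and 3.57 on control, 5.06 and 4.92 on ALA, and 5.76 and 5.56 on SFA. In all 3 the second control array was the lowest of the 6 and stood well below the first, while Slc22a30 was high on both control arrays and low on the rest. Slc22a19 was 2.79 to 3.56 on all arrays, below the minimum. Genes in such a row are close copies, and how far a probe for 1 of them also catches its neighbours was not tested.

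The start regions of the 4 tested members of the row are shown because their patterns differ, and that of Slco1a1 because its control arrays were the farthest apart of all members. Each is the RefSeq sequence of GRCm38.p6 on the minus strand, 5′ to 3′. The first 3 run from 150 bases to 1 base before the annotated start, and capitals mark TTCNNNGAA, the palindromic motif of STAT5, a factor that carries growth hormone signals in liver. Slco1a1 lies at chr6:141946963-141947112, Slc22a26 at chr19:7802668-7802817 and Slc22a27 at chr19:7966028-7966177.
Slco1a1: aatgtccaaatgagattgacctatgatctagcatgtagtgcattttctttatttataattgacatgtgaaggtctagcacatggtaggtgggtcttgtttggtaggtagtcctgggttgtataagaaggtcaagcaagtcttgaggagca
Slc22a26: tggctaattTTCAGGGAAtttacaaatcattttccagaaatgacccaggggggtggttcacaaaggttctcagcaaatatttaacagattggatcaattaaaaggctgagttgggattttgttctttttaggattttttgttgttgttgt
Slc22a27: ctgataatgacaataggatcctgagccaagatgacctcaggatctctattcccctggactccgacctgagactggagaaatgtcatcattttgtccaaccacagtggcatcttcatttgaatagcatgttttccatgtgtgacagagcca

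Slc22a29 (chr19:8218901-8219069) and Slc22a30 (chr19:8405130-8405298) are given over the stretch where they align, and capitals mark the bases that are the same in both.
Slc22a29: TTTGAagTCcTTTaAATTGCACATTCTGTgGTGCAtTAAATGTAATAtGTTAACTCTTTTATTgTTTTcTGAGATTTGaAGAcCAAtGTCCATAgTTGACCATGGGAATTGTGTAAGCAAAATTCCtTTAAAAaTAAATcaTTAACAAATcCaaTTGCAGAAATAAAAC
Slc22a30: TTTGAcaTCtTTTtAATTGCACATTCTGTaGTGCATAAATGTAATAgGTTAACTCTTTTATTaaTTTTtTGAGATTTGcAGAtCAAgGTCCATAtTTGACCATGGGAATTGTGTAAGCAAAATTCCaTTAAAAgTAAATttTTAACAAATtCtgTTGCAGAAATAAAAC
These 2 stretches matched at 149 of 168 aligned bases (88.7%), with 2 gap bases. The alignment begins 169 bases before the annotated start of Slc22a29 and 193 before that of Slc22a30. The 2 genes differed in pattern, with Slc22a29 highest on the SFA arrays and Slc22a30 highest on the control arrays. They were the closest long pair of the row. The other pairs compared matched at 66.0% to 72.8% over 102 to 196 bases, or aligned over 14 to 22 bases only. The motif TTCNNNGAA reads the same on both strands and was searched in the 250 bases before each annotated start. It was present in 9 of 86 promoters of the 73 members with a RefSeq promoter (10.5%) and in 2306 of 32851 promoters of all genes (7.02%). Those members were Slco1a5, Slco1b2, Slco2b1, Slc10a1, Slc22a15, Slc22a16, Slc22a19, Slc22a26 and Abcc5, and a match is a description of the letters only.

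Several members differed widely between the 2 control pools. Of the 52 tested, 6 (11.5%) differed by over 1 log2 unit between the control arrays, against 1.29% of all tested genes. Between the ALA arrays 2 did so (3.85%, against 1.13%), and between the SFA arrays 1 (1.92%, against 0.392%). The 6 were Slc22a26 (2.58 higher on control replicate 1), Slc22a27 (2.48 higher), Slc22a29 (1.87 higher), Abcd2 (1.34 higher), Slco1a4 (1.08 higher) and Slc22a7 (-1.05, higher on replicate 2). The widest gap belonged to a member below the signal minimum. Slco1a1, a sinusoidal carrier of organic anions known for higher levels in adult male than female mouse liver, read 5.41 and 9.54 on control, 3.72 and 3.63 on ALA, and 3.41 and 3.78 on SFA. Its mean over the arrays, 4.91, left it untested by a narrow margin, and almost all of its signal came from 1 array.

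**Figure D3:**
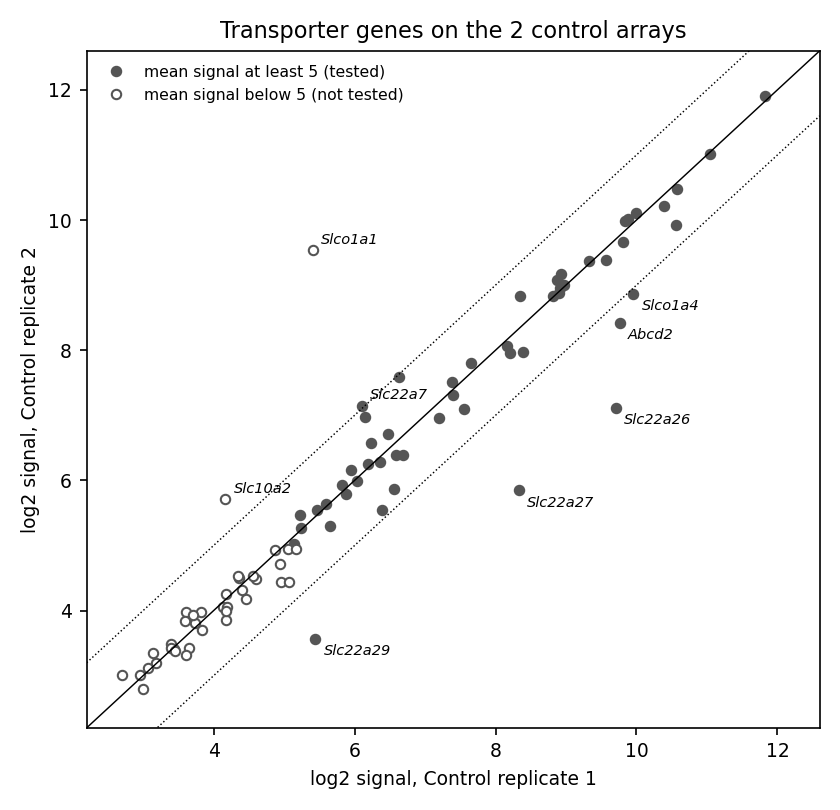
Log2 signal of the 89 transporter genes on control replicate 1 (x axis) and control replicate 2 (y axis), with filled points for the 52 tested genes and open points for the 37 below the signal minimum. The solid line marks equal signal and the dotted lines a difference of 1. Slco1a1 lies far above the line at 5.41 and 9.54, and Slc22a26, Slc22a27 and Slc22a29 lie far below it.

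The same 2 control arrays also differed in sex-linked and sex-biased genes. Xist, the RNA that coats the inactive X chromosome of females, read 10.67 and 8.34 on control, 3.76 and 4.24 on ALA, and 9.46 and 9.51 on SFA. The Y-linked Eif2s3y read 3.63 and 7.95 on control, 7.74 and 7.80 on ALA, and 4.11 and 3.79 on SFA. A list of liver genes known to be higher in adult males, drawn up after the values had been seen, had a mean signal over 7 genes of 5.85 on control replicate 1, over 4 log2 units more on control replicate 2, 5.24 and 5.11 on ALA, and 4.95 and 5.15 on SFA. Its counterpart for adult females had a mean over 6 genes of 9.16 and 6.67 on control, 8.44 and 8.33 on ALA, and 8.42 and 8.49 on SFA. Slco1a1 was thus high on the array where the male list was high, and Slc22a26, Slc22a27 and Slc22a29 were low on it. The ALA arrays carried Y-linked signal without Xist, yet their Slco1a1 and list values lay near those of the SFA arrays, which carried Xist without Y-linked signal. The part of pool sex in the members' values was not tested.

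**Figure D4:**
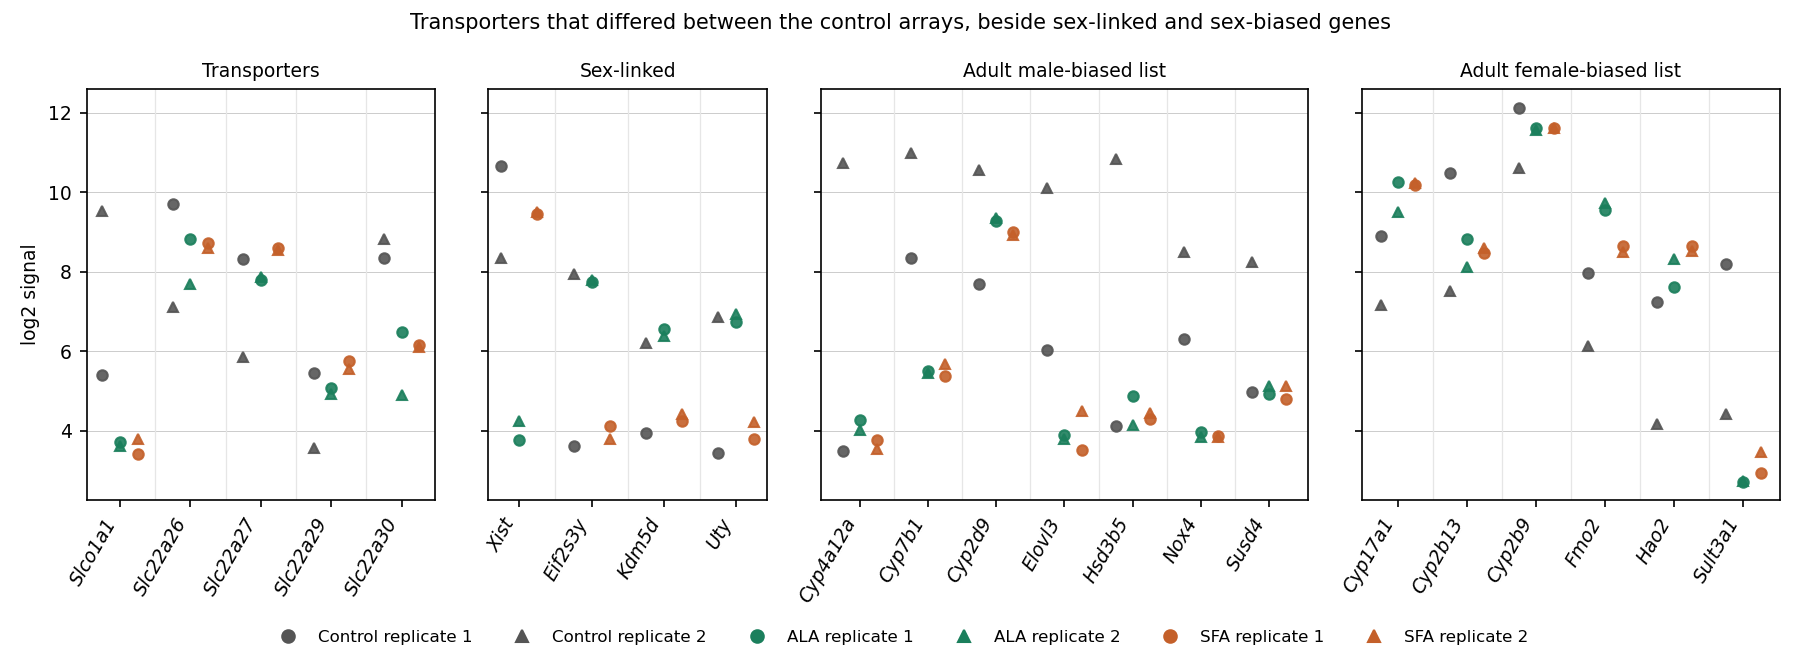
Log2 signal on each array for 5 transporters (left panel), 4 sex-linked genes and the measured genes of the adult male-biased and female-biased lists, with the same colours for diet and shapes for replicate throughout. The second control array (grey triangles) is high for Slco1a1 and the male-biased list and low for Slc22a26, Slc22a27 and Slc22a29.

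Leaving out either control array turned the picture for these genes. Without control replicate 1, Slc22a27 was 1.98 higher on ALA and 2.72 higher on SFA, and Slc22a29 was 1.42 and 2.10 higher. The control side of those changes is 1 array. On it Slc22a29 read 3.57, below 4.42, the highest Y-linked signal on the SFA arrays. Slc22a29 had group means of 4.51 on control, 4.99 on ALA and 5.66 on SFA, so it passed the signal minimum through the SFA arrays. Without control replicate 2 the ALA changes were -0.50 for Slc22a27 and -0.45 for Slc22a29, and the SFA changes were 0.24 and 0.22, with none called. With all arrays Slc22a27 stood at 0.74 and 1.48, Slc22a29 at 0.49 and 1.16 and Slc22a26 at -0.15 and 0.26, and none passed. Over the fits with 1 array left out, Slc22a26 ran from -1.45 to 1.14 on ALA and from -1.04 to 1.55 on SFA.

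The exporters of the Abcc family included both directions. Abcc2, the canalicular pump for conjugated bilirubin and glutathione conjugates, read 11.05 and 11.02 on control, 10.77 and 10.94 on ALA, and 10.47 and 10.46 on SFA. The order was control, ALA, SFA with no overlap, and Abcc2 fell by 0.57 on the SFA diet (SE 0.12, adjusted p = 0.0296), with -0.18 on the ALA diet (adjusted p = 0.428). Abcc3, which returns conjugates to blood across the sinusoidal side, read 10.57 and 9.93 on control, 9.21 and 9.22 on ALA, and 9.51 and 9.54 on SFA. All 4 diet arrays lay below control, and Abcc3 fell by 1.04 on the ALA diet (SE 0.20, adjusted p = 0.0300). Its SFA change of -0.73 did not pass (adjusted p = 0.0592). Of the 6 fits that left out an array, the one without control replicate 2 alone kept the ALA call, and the change ran from -1.36 to -0.72.

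Abcc10, a pump of lipophilic drugs and conjugates, read 6.36 and 6.29 on control, 6.23 and 6.02 on ALA, and 5.33 and 5.66 on SFA. The SFA arrays stood apart, and Abcc10 fell by 0.83 there (SE 0.15, adjusted p = 0.0191), beside -0.20 on the ALA diet. Abcc6, known for its link to mineral deposits in connective tissue, read 8.87 and 9.09 on control, 8.86 and 9.02 on ALA, and 8.50 and 8.47 on SFA, and its SFA change of -0.49 fell just short (adjusted p = 0.0542). Abcc4, an exporter of cyclic nucleotides and bile acids, overlapped between all diets (5.54 to 6.39), as did Abcc5 between control and ALA. Abcc9, the sulfonylurea receptor 2 of potassium channels and so no exporter, was the one Abcc member that rose. It read 7.55 and 7.10 on control, 8.56 and 8.21 on ALA, and 8.42 and 8.41 on SFA. Abcc9 rose by 1.06 (SE 0.19, adjusted p = 0.0231) and 1.09 (SE 0.19, adjusted p = 0.0162), with a range of 0.83 to 1.32 over both diets when 1 array was left out. Leaving out control replicate 2 or any 1 of the SFA arrays ended both calls, and so did leaving out ALA replicate 1 for the ALA diet (adjusted p up to 0.101 on ALA and 0.0832 on SFA). Stellate cell markers, 12 of 12 of which were above control on both diets, moved in the same direction, and their part in the Abcc9 change was not tested.

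In the Abcb family the canalicular phospholipid pump was the one called. Abcb4, which moves phosphatidylcholine into bile, read 10.39 and 10.22 on control, 9.93 and 9.84 on ALA, and 9.80 and 9.73 on SFA. No diet array reached the lower control array, and Abcb4 fell by 0.54 on the SFA diet (SE 0.13, adjusted p = 0.0369), beside -0.42 on the ALA diet (adjusted p = 0.0937). Abcb1a, the drug pump P-glycoprotein, read 6.57 and 5.87 on control, 5.58 and 6.56 on ALA, and 5.39 and 6.00 on SFA, with overlap throughout, and its close copy Abcb1b was 3.34 to 4.26, below the minimum. Abcb10, a mitochondrial protein of heme-forming cells, read 6.16 and 6.97 on control, 5.97 and 5.79 on ALA, and 6.08 and 5.79 on SFA. All 4 diet values lay below control, but its changes of -0.68 and -0.63 did not pass (adjusted p = 0.164 and 0.150), and both passed without control replicate 1 (-1.09 and -1.04, adjusted p = 0.0389 and 0.0377). Of the 2 other tested members, both organelle proteins, Abcb6 changed by -0.28 and 0.20 and Abcb8 by 0.23 and 0.16, without a call.

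The lipid transporters of the Abca and Abcg families (8 and 4 tested genes) gave 3 called genes. Over all tested genes 7.93% were called on ALA and 13.8% on SFA. Abca2, a lipid carrier of endosomes and lysosomes, read 7.65 and 7.80 on control, 7.05 and 6.95 on ALA, and 7.17 and 7.22 on SFA. The diet arrays lay together below control, and Abca2 fell by 0.72 (SE 0.13, adjusted p = 0.0207) and 0.53 (SE 0.13, adjusted p = 0.0373). Abca8a, one of a group of neighbouring, similar Abca genes, read 8.92 and 8.95 on control, 8.54 and 8.18 on ALA, and 8.35 and 8.19 on SFA. It fell by 0.67 on the SFA diet (SE 0.15, adjusted p = 0.0353), and -0.57 on the ALA diet did not pass (adjusted p = 0.0698). Its copy Abca8b changed by -0.44 and -0.13 and was not called, and how far their probes catch each other's RNA was not tested. Abca3, Abca5, Abca6, Abca7 and Abca9 changed by -0.43 to 0.36 over both diets, and none was called.

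Abcg1, which moves cholesterol from macrophages and other cells to lipoproteins, read 6.59 and 6.39 on control, 7.19 and 7.03 on ALA, and 6.55 and 6.56 on SFA. The ALA arrays alone stood higher, and Abcg1 rose by 0.63 on the ALA diet (SE 0.13, adjusted p = 0.0364), with 0.07 on the SFA diet (adjusted p = 0.735). It was not called in any of the 6 fits that left out 1 array (adjusted p of 0.0670 to 0.156, log2 change of 0.53 to 0.72). Macrophage markers were above control on both diets (12 of 12 genes on each), and their part in the Abcg1 change was not tested. Abcg5 and Abcg8, which together pump sterols into bile, read 9.84 and 9.99 and 8.93 and 9.17 on control, and their ranges on the other 4 arrays were 9.42 to 9.92 and 8.32 to 8.85. Abcg8 lay below control on all 4, though neither gene passed on either diet (-0.25 and -0.14 for Abcg5, -0.46 and -0.39 for Abcg8). Abcg2, the canalicular pump for urate and drugs, read 6.63 and 7.58 on control, 6.55 and 7.15 on ALA, and 6.17 and 6.41 on SFA, and its changes of -0.26 and -0.82 did not pass (adjusted p = 0.682 and 0.140).

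The Abcd and the non-transport ABC proteins (3 and 4 tested genes) gave 0 calls on either diet in limma's test. Over all tested genes 7.93% were called on ALA and 13.8% on SFA, so 0 of so few genes is no result about these families. Abcd3, which brings fatty acyl chains into peroxisomes, read 10.58 and 10.47 on control, 10.02 and 10.12 on ALA, and 10.19 and 10.16 on SFA. Each diet lay below control without overlap, with changes of -0.46 (SE 0.12, adjusted p = 0.0663) and -0.35 (SE 0.12, adjusted p = 0.0969). Abcd2, a peroxisomal carrier of very long and unsaturated acyl chains, read 9.76 and 8.42 on control, 8.72 and 9.10 on ALA, and 9.79 and 9.83 on SFA. The first control array and the SFA arrays were high, and neither change passed with all arrays (-0.18 and 0.71, adjusted p = 0.813 and 0.253). Without control replicate 1 the SFA change of Abcd2 was 1.38 (adjusted p = 0.0215), and without control replicate 2 it was 0.04. Abcd4, a lysosomal protein of cobalamin handling, changed by -0.13 and -0.22. Abce1, which recycles ribosomes, and Abcf1, Abcf2 and Abcf3, which act in translation and carry nothing across membranes, changed by -0.24 to 0.24 over both diets, and the family medians were -0.03 and 0.08.

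Family medians were farthest below control on the SFA diet in the Abcb (-0.28 on ALA, -0.52 on SFA), Abcc (-0.11 and -0.49), Slco (-0.06 and -0.47) and Slc22a (-0.14 and -0.28) genes. The Abca (-0.25 and -0.15), Abcg (-0.25 and -0.26), Abcd (-0.18 and -0.22) and Slc10a (-0.07 and -0.24) medians lay between these and the Abce and Abcf genes on SFA. On ALA the order differed, with the Abca, Abcg and Abcd medians below those of Abcc, Slco and Slc22a. Small family medians turned sign when 1 array was left out. On ALA the Slc10a median was 0.10 and the Abcg median 0.02 without control replicate 2, the Abcc median 0.04 and the Abcg median 0.03 without ALA replicate 1, and the Slc10a and Slco medians 0.09 and 0.01 without ALA replicate 2. The Abce and Abcf median was 0.11 on ALA without ALA replicate 2, and -0.01 on SFA without control replicate 2 or without SFA replicate 1. On SFA the Slco median was 0.12 with no signal minimum, when all 15 members entered, and the Abcd median 0.18 at a minimum of 6. By role, the list of 8 canalicular and sinusoidal exporters had 7 tested members, of which 0 lay above control on either diet, 1 was called lower on ALA and 2 on SFA. The list of liver uptake carriers had 5 tested members, of which 3 lay above control on each diet and 0 and 2 were called lower. Over all tested genes, 51.7% lay below control on ALA and 55.2% on SFA, and 2.82% and 7.15% were called lower. Both lists are short, hold genes already described and are a description of them.

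Between the 2 test diets, 0 of 52 members passed limma's test (against 1.53% of all genes, 1.09% higher on ALA and 0.437% lower), and 11 had an unadjusted p below 0.05 (21.2%, against 22.4% of all genes). The groups did not overlap for 27 of 52 (51.9%, against 55.8%). The smallest adjusted p was 0.0867, for Abcg1, which was 0.55 higher on ALA (95% interval 0.24 to 0.87). Abcc10 was 0.63 higher on ALA (0.27 to 0.99, adjusted p = 0.0880), Abca7 0.60 higher (0.23 to 0.97, adjusted p = 0.0957) and Slc22a17 0.52 higher (0.18 to 0.86, adjusted p = 0.108). Slco2a1 differed by -0.49 (-0.78 to -0.20, adjusted p = 0.0918) and Abcb6 by -0.48 (-0.80 to -0.16, adjusted p = 0.112). Abcd2 had the widest difference, -0.90, with an interval of -1.81 to 0.02. These intervals are not adjusted for the number of genes, and missing the threshold does not show that the diets had the same effect. The ALA pools carried Y-linked signal without Xist and the SFA pools the reverse, so diet and pool sex cannot be told apart here. The members' median difference was 0.06, beside 0.04 for all genes, and 75th percentile centring moved the latter to -0.07. Of all genes called between these diets, 71.4% were higher on ALA, against 42.0% and 55.3% with 75th percentile centring and cyclic loess, and 34 of 68 genes with quantile normalization.

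The regulators and other transporters of the same pathway come from lists that hold no members. Their counts stand beside the 7.93% of all tested genes called on ALA and 13.8% on SFA. Of 14 nuclear receptors and factors tested, 1 rose on ALA, and 1 rose and 1 fell on SFA, with medians of -0.15 and -0.27. Nr1i2, the pregnane X receptor that senses drugs and bile acids, read 8.31 and 8.39 on control, 9.03 and 9.28 on ALA, and 9.06 and 8.87 on SFA. It rose by 0.81 (SE 0.14, adjusted p = 0.0220) and 0.62 (SE 0.14, adjusted p = 0.0345), without overlap. Nr1i3, the constitutive androstane receptor that drives genes of drug and bilirubin clearance, read 10.66 and 10.48 on control, 10.38 and 10.34 on ALA, and 9.20 and 9.22 on SFA. It fell by 1.36 on the SFA diet (SE 0.12, adjusted p = 0.00302), and it was the 1 gene of the list that differed between ALA and SFA (1.15 higher on ALA, SE 0.12, adjusted p = 0.0348).

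Of 21 other hepatobiliary transporters and partner proteins tested, 1 rose and 2 fell on ALA, and 1 rose and 3 fell on SFA, with medians of -0.28 and -0.22. Slc23a1, a vitamin C carrier, rose by 0.80 (adjusted p = 0.0218) and 0.57 (adjusted p = 0.0418). Slc17a2, an organic anion and phosphate carrier, fell by 0.78 (adjusted p = 0.0340) and 1.09 (adjusted p = 0.00976). The scaffold protein gene Pdzk1, whose product anchors carriers at the membrane, fell by 0.65 on ALA (adjusted p = 0.0493). On the SFA diet Slc17a3, a urate carrier, fell by 1.17 (adjusted p = 0.0213) and Tap2, a peptide pump of antigen presentation, by 0.55 (adjusted p = 0.0346).

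The 37 members below the signal minimum were not tested. The highest Y-linked signal on the SFA arrays, which lack Y-linked signal as a group, was 4.42, so a signal near that level may be background. Of the 37, 21 stayed at or below 4.42 on every array, among them Slco1a5, Slco1a6, Slco1c1, Slco4c1, Slco5a1, Slc22a2, Slc22a19 and Slc22a22. Above 5 on at least 1 array were 9: Slco1a1, Slc10a2, Slc22a20, Slc22a21, Abcb9, Abcc1, Abcc8, Abcg3 and Abcg4. The members just inside the minimum by mean were Slc22a29 (5.05), Slc22a13b (5.16) and Abcc5 (5.23), and those just outside were Slco1a1 (4.91), Abcc8 (4.92) and Abcg3 (4.93). Abcc1, a widely expressed export pump, read 4.96 and 4.43 on control, 5.06 and 5.59 on ALA, and 4.57 and 4.46 on SFA, and its 2 highest values were the ALA arrays.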

How the data were processed

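Biotin-labelled total RNA of pooled offspring livers was measured on 6 Affymetrix arrays, 2 per maternal diet, grouped by sample title. The deposited values were read as log2 signals from their range of 1.98 to 13.1, since no log base is stated. The authors used RMA, a multi-array summary of probes, and the Partek 6.6 software, per the submitters' processing notes. Their settings are not given in the sources used here. Such summaries can compress low signals, so changes of dim genes may be understated, which was not tested here. Array medians were 4.76 and 4.82 for SFA and 4.90 to 4.96 for the others. The number of arrays limits the precision, and replicates correlated at 0.977 to 0.986 (arrays of different diets at 0.927 to 0.964).

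Of 35556 probes, 21789 had 1 gene symbol (21698 found by Entrez identifier in RefSeq, 0 symbols changed), 1621 several and 12146 none listed. The brightest probe stood for a gene, and the 10977 genes with a mean of at least 5 were fitted in R 4.3.3 with limma 3.58.1: a mean per diet over all 6 arrays (3 residual and 4.05 prior degrees of freedom), two-sided tests, Benjamini-Hochberg adjustment over all tested genes, calls at 0.05. The script was tested on simulated data. Errors are standard errors of that fit.

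The members and lists were chosen with earlier results of these data known. Genes named with values were the uptake and export carriers, called members (up to 10 per contrast and direction), the largest change per family and contrast, and called genes of the pathway lists. Genes outside that rule, namely the Slc22a row on chromosome 19, Slc10a2, Abcc1 and those used to complete a family, were named after their values were seen.

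Same-numbered replicates did not deviate together (correlations of -0.03, 0.00 and 0.02), so the replicate number was no block. Alternatives were other signal minimums, probe averaging, 3 further normalizations, a replicate block, an intensity trend, fits of the compared groups alone and leaving out each array. Promoters are RefSeq sequences of GRCm38.p6.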

Additional observations from a re-analysis of the deposited data

How the results depend on the processing

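The limits of these results are set by 2 arrays a diet. The 7 ALA calls were all kept under the 3 other normalizations, probe averaging, the replicate block and a minimum on the highest group mean (added after the data were seen). Of the 12 SFA calls, 7 were kept with 75th percentile centring (6 of them lower), 10 with quantile normalization and 11 with cyclic loess. Slc22a17 was lost under all 3 scalings and Abca2 under the first 2. Abcb4, Slco1b2 and Slco2a1 were lost with 75th percentile centring. Centring on the 75th percentile moved the median of all genes from -0.05 to 0.05 on SFA and from 0.04 to -0.07 between ALA and SFA. The cause of these shifts was not tested.

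Without a signal minimum the counts were 1 member higher on ALA, 6 called on SFA (5 lower) and 6 by the F test, with more genes tested. At a minimum of 6, 8 members were lower on ALA. An intensity trend called 11 on ALA (9 lower), and the fit of 2 groups alone called 3 on ALA (0 higher, 3 lower) and 448 genes in all. With the replicate block, 7 members were called on ALA (the same genes), 10 on SFA (9 shared, without Abca2, Slco1b2 and Slco2a1, and with Abcg2) and 7 by the F test, and 0 genes differed between ALA and SFA; the numbers share no pairing in the labels. The 168 genes called between ALA and SFA became 32 without a minimum, 293 at 6, 100, 68 and 76 under 75th percentile, quantile and cyclic loess scaling, 308 with a trend and 11 with 2 groups.

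Leaving out 1 array gave 267 to 475 genes on ALA, 245 to 1428 on SFA, 0 to 36 between ALA and SFA and 318 to 988 by the F test. The member counts were 2 to 7 on ALA (0 to 3 higher, 2 to 4 lower), 0 to 11 on SFA (0 to 5 higher, 0 to 10 lower), 0 between the diets and 1 to 8 by the F test. Of the named genes' log2 changes, 21 values reversed, none of them called with all arrays. Quantile scaling gave 0.00 for Abcc6 on ALA and 0.02 for Abcc4 on SFA, and cyclic loess 0.00 for Slc10a1 and 0.00 for Abcc4 on SFA. With 1 array left out, the ALA ranges were -0.64 to 0.34 for Abcb1a, -0.53 to 0.31 for Abcc4, -1.45 to 1.14 for Slc22a26, -0.20 to 0.89 for Slco1a4, -0.15 to 0.07 for Abcc6, -0.74 to 0.22 for Abcg2, -0.50 to 1.98 for Slc22a27, -0.45 to 1.42 for Slc22a29 and -0.13 to 0.01 for Slco1b2. The SFA ranges were -0.55 to 0.30 for Abcc4 and -1.04 to 1.55 for Slc22a26.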

Other observations

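A further 3 genes of these families were measured only by probes annotated to more than 1 symbol and entered no test. The probe shared by Slc22a28, Slc22a29 and Slc22a30 read 8.94 and 9.64 on control, 6.72 and 6.20 on ALA, and 7.20 and 7.11 on SFA, the order seen with the Slc22a30 probe and not with the Slc22a29 probe. The probe shared by Slc10a3 and Gm44504 read 5.50 to 6.00 on all arrays, and that shared by Slc10a4 and Slc10a4l 4.20 to 4.72.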
